A study of Mus musculus with 9 samples.

Results

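The input border pairs are the short intervals that MACE (model-based analysis of ChIP-exo) reported for chromatin of N2A cells that had not been immunoprecipitated. They were taken as the 3 deposited input lists, 1 per treatment, with 6351 pairs after vehicle, 5767 after corticosterone (CORT) and 5509 after CORT and washout, and these 17627 pairs are part of 25244 border pairs in the 9 lists of the series. Pairs that overlapped by at least 1 bp were joined, which gave 14813 input regions.

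N2A is a mouse neuroblastoma cell line. In the study, ChIP-nexus mapped the DNA contacts of the glucocorticoid receptor (GR) and the mineralocorticoid receptor (MR), and the input chromatin served as background. All cells were transiently transfected with EGFP-GR and mCherry-MR, so plasmid copies of both receptors were present in every input. One group received vehicle, another 100 nM CORT for 20 min, and the third 100 nM CORT for 20 min followed by 2 washes and 40 min in medium without steroid. The submitters' text calls the receptors mouse and the methods call the cDNAs rat. With 1 list per treatment, and no read counts in the files, neither a spread between replicates nor the depth can be given. The study prepared replicates, and whether an input list pools them is not given in the sources used here.

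Input chromatin has no antibody step, so positions where its reads pile up mark the properties of the DNA and of the reference more than the binding of a protein. Known sources are DNA present in more copies than in the reference genome, such as amplified segments of a tumour line, plasmids, mitochondrial DNA, and satellite arrays that an assembly holds only in part. MACE looks for the edges that an exonuclease leaves beside a bound protein. According to the protocol, the input libraries were made with a standard kit, and the exonuclease steps are described for the ChIP-nexus libraries, so an edge in the input is not an exonuclease stop.

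The regions that recurred with the smallest MACE p-values were mostly simple or repeated sequence. Of the 10 named by that rule (the largest of the smallest p-values of the 3 inputs, at most 1 region per megabase), 1 was a run of A or T bases, 3 were runs of C or G, and 2 were telomeric repeats. The sequences below, from the RefSeq GRCm38.p6 reference, show 5 of the 10, followed by 1 region of the satellite array of chromosome 9. They are written on the forward strand, and capitals mark runs of at least 10 of the same base.
A run on chromosome 1: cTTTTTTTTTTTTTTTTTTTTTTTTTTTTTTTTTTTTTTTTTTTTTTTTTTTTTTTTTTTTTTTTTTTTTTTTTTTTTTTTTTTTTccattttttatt
C run on chromosome 7: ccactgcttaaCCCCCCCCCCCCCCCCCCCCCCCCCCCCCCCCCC
Region on chromosome 7: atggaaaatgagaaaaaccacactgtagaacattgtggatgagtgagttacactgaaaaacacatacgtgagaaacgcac
Region on chromosome 3: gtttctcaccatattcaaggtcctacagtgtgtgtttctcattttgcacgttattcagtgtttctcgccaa
Region on chromosome 14: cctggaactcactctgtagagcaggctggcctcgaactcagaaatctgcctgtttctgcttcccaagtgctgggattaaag
Satellite array on chromosome 9: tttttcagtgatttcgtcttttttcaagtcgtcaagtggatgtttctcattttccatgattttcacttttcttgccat

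The A run lay at chr1:123318886-123318983, between genes, and 85 of its 98 bases belonged to 1 run of T. Its middle 31 bases occurred 80949 times in the primary assembly. The C run at chr7:116452410-116452454 was intergenic, and 34 of its 45 bases belonged to 1 run of C. The intergenic region at chr7:26779952-26780031 and the region at chr3:99981156-99981226, in an intron of Spag17, both held a 15-base word of the chromosome 9 satellite array without a full 31-base word of it. The region at chr14:35652632-35652712 was intergenic and wholly soft-masked, which is how the reference marks repeats, and its middle word had 19 copies. Of the other regions named by the rule, those described here were a C run in an intron of Gm15218 on chromosome 14, a soft-masked region in an intron of Ube2q2 on chromosome 9, a telomeric repeat in an intron of Ppp2r2b and a C run in an intron of Dcc, both on chromosome 18.

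Most input regions were seen after a single treatment. A single input held 13143 regions (88.7%, 95% Wilson interval 88.2% to 89.2%), while 925 (6.24%, 5.87% to 6.65%) were shared by 2 inputs and 745 (5.03%, 4.69% to 5.39%) by all 3. Among the pairs at or below the median p of each list, the regions of all 3 inputs were 102 (1.22%). All such intervals cover counting error only, and neighbouring regions are not independent. The single-input regions numbered 4901 for vehicle, 4239 for CORT and 4003 for CORT and washout. Of regions in 2 inputs, 347 joined CORT and washout, 299 vehicle and CORT, and 279 vehicle and washout.

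Counted by pair, 842 of the vehicle pairs (13.3%, 12.4% to 14.1%) lay in a region of all 3 inputs, as did 851 CORT pairs (14.8%, 13.9% to 15.7%) and 849 washout pairs (15.4%, 14.5% to 16.4%). Of the vehicle pairs, 18.2% (17.3% to 19.2%) shared a region with the CORT input and 17.8% (16.9% to 18.8%) with the washout input. The vehicle list was the longest, and its share of recurrent pairs was the lowest. Regions of all 3 inputs were longer, with a median of 90 bp against 57 bp for regions of 1 input, which follows in part from joining several pairs.

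Single-input regions were rarely near a pair of another treatment unless they lay in a crowded megabase. Outside the dense megabases defined below, 3.55% of vehicle regions, 4.15% of CORT regions and 3.98% of washout regions had a pair of another input within 1 kb, measured between midpoints. Inside them these shares were 57.1%, 60.2% and 62.0%. The median distance to the nearest pair of another input outside dense megabases was 82.7 kb for vehicle, 79.4 kb for CORT and 75.6 kb for washout.

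The regions were placed in exclusive sequence classes by the 100 bases around the midpoint, or by their location. The classes were set after the values had been seen and are a description. A region was counted as satellite when it shared a 31-base word that occurs at least 2 times in the first 40 kb of assembled chromosome 9. Satellite regions recurred most: 294 of 367 (80.1%, 75.7% to 83.9%) were in all 3 inputs, and they made up 39.5% of all regions of 3 inputs against 0.327% of the regions of 1 input. Receptor coding exons followed with 14 of 27 (51.9%, 34.0% to 69.3%). The interval of the receptor exons lay below that of the satellite class and above those of the telomeric, mitochondrial and scaffold classes, but overlapped that of the C runs. Because an overlap of 1 bp counts as shared, classes where pairs are crowded can share regions by position alone. How much of each share this makes up was not tested.

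**Figure D1:**
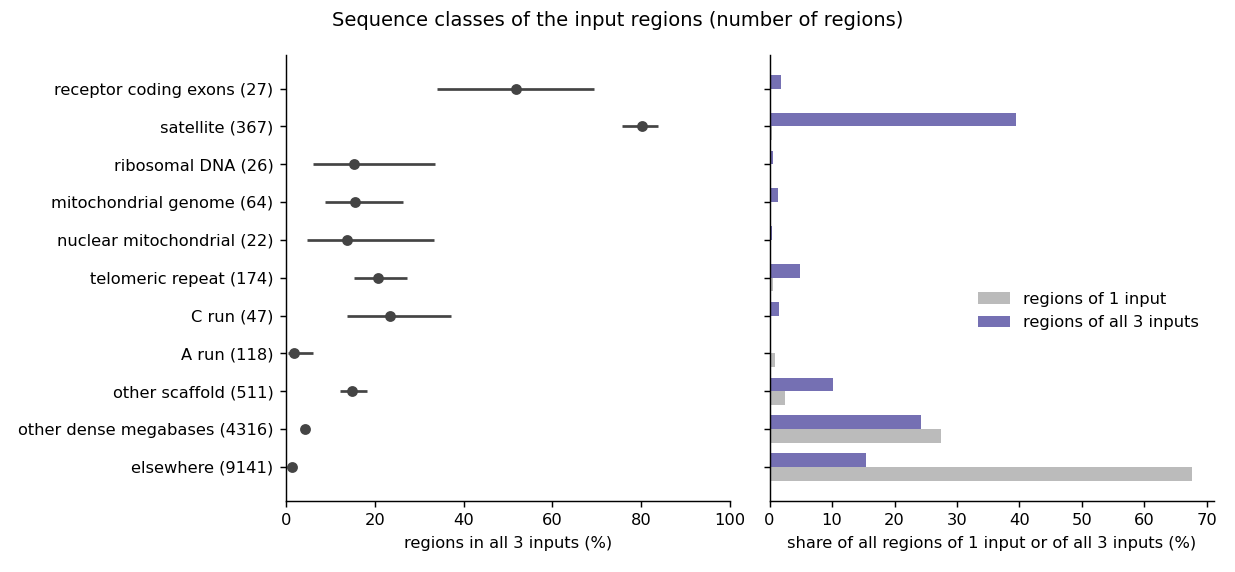
Each row is a sequence class with its number of regions. The left panel gives the share of its regions found in all 3 inputs, with 95% Wilson intervals, and the right panel gives the share that each class takes of all regions of 1 input (grey) and of all regions of 3 inputs (purple). Satellite regions sit at 80.1% on the left, whereas the 9141 regions elsewhere in the genome sit at 1.26%.

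Satellite DNA is tandemly repeated sequence found at and beside centromeres. Most of its regions lay in 2 places, the unplaced scaffold JH584304 with 181 and chromosome 9 with 150, and the others were on chromosomes 14 (15), 2 (6), 12 (5), 4 (4), 11 (3), 13, 16 and 19 (1 each). On chromosome 9, all but 2 of them lay in the megabase from 3 to 4 Mb, where 121 of 152 regions (79.6%, 72.5% to 85.2%) were in all 3 inputs. That megabase held 146 vehicle pairs, 148 CORT pairs and 143 washout pairs. The midpoints of neighbouring recurrent regions in the array were a median of 286 bp apart, with quartiles of 211 bp and 422 bp. Annotated protein-coding genes there were predicted genes inside the array: Gm10717 held 26 regions with 23 in all 3 inputs, Gm10719 held 19 with 13, and Gm11168 held 16 with 12. Outside dense megabases the predicted gene Gm21738 on chromosome 14 had 11 of 12 regions recurrent, all 12 of them satellite, and Gm10801 and Gm10800 on chromosome 2 had 5 of 5 and 3 of 3.

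Shorter words, a comparison chosen after seeing the data, extended the class. Of the 115 recurrent regions that fell in no other class and lay outside dense megabases, 17 (14.8%, 9.44% to 22.4%) shared a 15-base word with the array. This share was 0.281% (0.190% to 0.415%) among 8894 single-input regions of that kind, and 0.272% (0.216% to 0.342%) of 26477 windows of 100 bases placed every 100 kb along the genome.

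The genes of the transfected receptors were marked almost only in their coding exons. Nr3c1, which encodes GR (ENSMUSG00000024431, chromosome 18, 39410545 to 39519421), spans 109 kb, of which 2.38 kb (2.19%) is coding. It held 9 regions, and all 9 overlapped a coding exon. Nr3c2, which encodes MR (ENSMUSG00000031618, chromosome 8, 76899442 to 77245012), spans 346 kb with 2.95 kb (0.854%) coding. It held 19 regions, of which 18 overlapped a coding exon. These 27 coding regions included 14 of all 3 inputs, 5 in Nr3c1 and 9 in Nr3c2.

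The 3 treatments gave like counts at both genes. Nr3c1 had 8 pairs after vehicle, 8 after CORT and 9 after washout, and Nr3c2 had 14, 16 and 18. At least 1 region touched each of the 8 coding exons of Nr3c2 and 5 of the 8 of Nr3c1, the exceptions being coding exons 2, 5 and 7. The first coding exon of Nr3c2, which is 1757 bp long, held 10 regions, with 6 vehicle pairs, 5 CORT pairs and 8 washout pairs. Of the 27 regions, 19 lay wholly inside a coding exon and 8 crossed its end, by 2 to 54 bases. The middle word of a region in either gene was single-copy in the reference (median of 1 copy). Plasmid DNA and DNA of the chromosomal gene cannot be told apart in these lists.

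**Figure D2:**
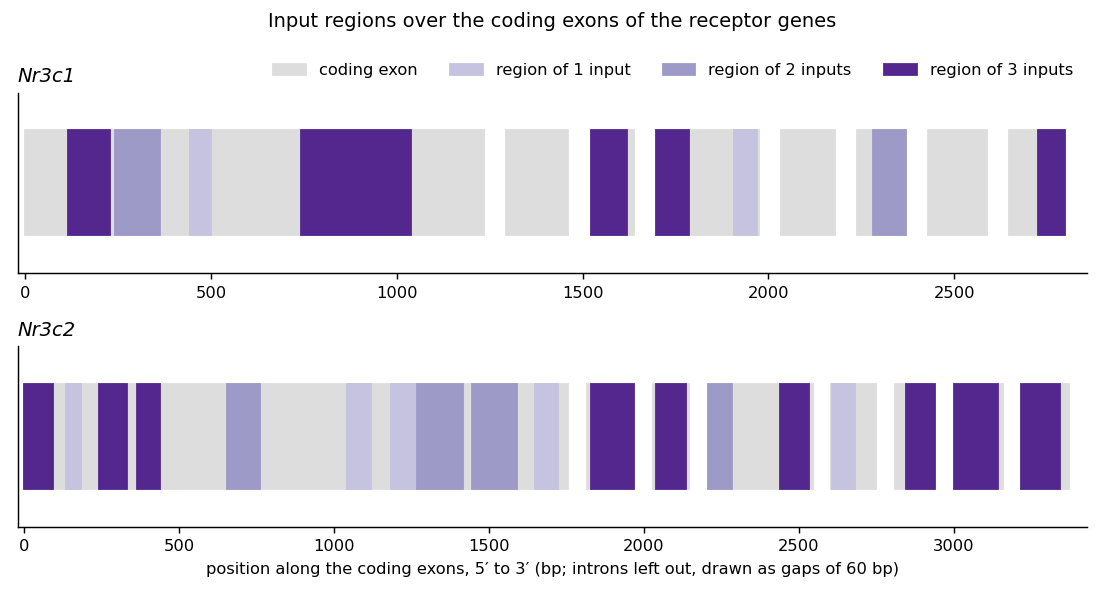
The coding exons of Nr3c1 and Nr3c2 are drawn 5′ to 3′ in grey, with introns left out, and the x axis is the position in bp along them. Coloured boxes are input regions, darkest for those of all 3 inputs, and every coding exon of Nr3c2 holds at least 1 box while 3 of the 8 of Nr3c1 hold none.

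Apart from these genes and the satellite genes, few coding exons recurred. A coding exon held the midpoint of 67 recurrent regions on the chromosomes, and 14 of these were receptor regions and 51 satellite regions. Once dense megabases, receptor exons and satellite regions were left out, 1 of 164 recurrent regions (0.610%, 0.108% to 3.37%) and 208 of 9119 single-input regions (2.28%, 1.99% to 2.61%) had a coding midpoint, compared with 1.38% of the genome.

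Telomeric repeats, the TTAGGG units that cap chromosomes, were found inside the chromosomes as well. At least 3 units in a row, on either strand, were held by 174 regions on 21 chromosomes, at a median of 21.7 Mb from the nearer chromosome end, and 36 of them (20.7%, 15.3% to 27.3%) were in all 3 inputs. None of 26484 grid windows held the motif, which allows a share of up to 0.0113%. Runs of at least 15 C or G bases were held by 47 regions, with 11 in all 3 inputs (23.4%, 13.6% to 37.2%), and by 6 grid windows. Runs of at least 20 A or T bases were held by 55 grid windows and recurred no more often than input regions as a whole. Of the 118 regions of that class, 109 were in a single input and 2 in all 3 (1.69%, 0.466% to 5.97%). Over all regions 88.7% were in a single input and 5.03% in all 3.

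Ribosomal and mitochondrial DNA, both of which cells hold in many copies, recurred less often than satellite DNA. Their shares in all 3 inputs were above the 5.03% over all regions. The ribosomal DNA copy on chromosome 17, annotated as Gm26917, Gm42418, AY036118 and CT010467.1, held 26 regions from 17 vehicle, 16 CORT and 14 washout pairs. Among them, 4 regions were in all 3 inputs (15.4%, 6.15% to 33.5%). The mitochondrial genome of 16299 bp held 64 regions, which covered 34.1% of its length, from 38 vehicle, 36 CORT and 35 washout pairs. Of these, 10 were in all 3 inputs (15.6%, 8.71% to 26.4%). A further 22 regions on nuclear chromosomes shared a 31-base word with the mitochondrial genome. Lars2, which encodes the mitochondrial leucyl-tRNA synthetase, held 1 region, which was in all 3 inputs. Rn45s and Erdr1 had no entry under these symbols in the annotation used.

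Unplaced scaffolds, pieces of the assembly without a chromosome position, took a larger share of the CORT and washout lists. Scaffold pairs were 368 of the vehicle list (5.79%, 5.25% to 6.40%), 497 of the CORT list (8.62%, 7.92% to 9.37%) and 481 of the washout list (8.73%, 8.01% to 9.51%). The vehicle interval did not overlap the others, and treatment and list cannot be told apart. On JH584304, which is 114452 bp long, the pairs numbered 291, 365 and 359 in the same order, and its 494 regions covered 35.2% of it. Recurrence followed the satellite words along this scaffold: from 80 to 90 kb all 44 regions held them and 29 were in all 3 inputs, while in the first 10 kb none of 52 regions did and 4 were in all 3. The next scaffolds were GL456383 with 14, 23 and 27 pairs and GL456392 with 10, 21 and 20. The other 18 scaffolds together had 77 vehicle, 132 CORT and 122 washout pairs.

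Chromosome 8 stood apart in every input. It held 1499 vehicle pairs, 1290 CORT pairs and 1277 washout pairs, which is 23.6%, 22.4% and 23.2% of the lists. Per megabase this was 11.6 (exact 95% Poisson interval 11.0 to 12.2), 9.97 (9.43 to 10.5) and 9.87 (9.33 to 10.4). The other autosomes together had 1.88, 1.63 and 1.53 pairs per Mb, so chromosome 8 was 6.17, 6.13 and 6.45 times as dense. Over the lists together the ratio was 6.24, and 3.61 for the pairs at or below the median p. The next densest was chromosome 13 at 3.57, 2.86 and 2.67 per Mb, and the sparsest autosomes were chromosomes 18, 14 and 3.

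The density of chromosome 8 was not confined to its dense megabases. Without them it held 4.68 vehicle pairs per Mb (4.28 to 5.10), 3.42 CORT pairs (3.08 to 3.78) and 3.53 washout pairs (3.19 to 3.90), which is 3.18, 2.84 and 3.12 times the other autosomes treated alike. The median megabase outside dense ones held 9 regions on chromosome 8 and 3 on the other autosomes. At least 10 regions were held by 74 of the 130 megabases of chromosome 8 (56.9%) and by 193 of 2343 on the other autosomes (8.24%). No measurement of DNA copy number was used here.

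**Figure D3:**
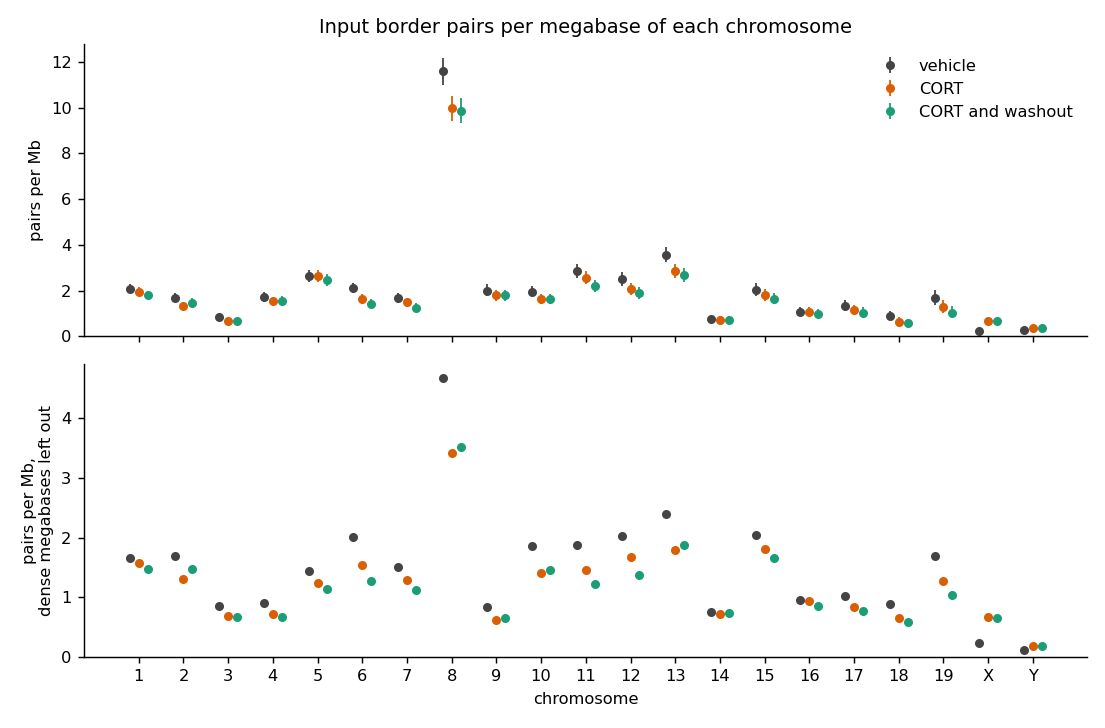
The upper panel gives border pairs per Mb for each chromosome and input, with exact 95% Poisson intervals, and the lower panel the same with dense megabases left out. Chromosome 8 lies above all others in both panels, and on chromosome X the vehicle input lies below the other inputs.

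Chromosome X differed between the inputs in the opposite direction to list length. The vehicle input had 39 pairs there, 0.228 per Mb (0.162 to 0.312), while the CORT input had 114 (0.667, 0.550 to 0.801) and the washout input 112 (0.655, 0.539 to 0.788). CORT over vehicle was therefore 2.92 on X, where on chromosomes 1 to 19 it ran from 0.738 to 0.998. On Y, which had 27 vehicle, 34 CORT and 35 washout pairs, it was 1.26, so also above 1. On X the same 6 regions were in all 3 inputs, and 27 of the vehicle pairs, 94 of the CORT pairs and 97 of the washout pairs lay in a region of 1 input. The pairs were spread along X: in 4 segments of equal length, in order, vehicle had 17, 3, 5 and 14, CORT 29, 12, 26 and 47, and washout 28, 17, 22 and 45. Mid1, near the end of X, had 7, 8 and 8 pairs, and 4 of its 11 regions were in all 3 inputs. With 1 list per treatment, an effect of treatment and a difference between lists cannot be told apart here.

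Dense megabases, defined as 1 Mb bins with at least 5 times the mean of 5.14 regions, numbered 53 of 2737 (1.94%) and held 4505 of the 14057 regions on chromosomes (32.0%). Joined where adjacent they made 38 blocks, 10 of them on chromosome 8. In 22 blocks at least 50% of the regions had a middle word that occurs more than once in the reference, and in these 287 of 3518 regions (8.16%) were in all 3 inputs. The satellite block of chromosome 9 supplied 121 of the 287, and without it the share was 166 of 3366 (4.93%, 4.25% to 5.72%). In the other 16 blocks it was 24 of 987 (2.43%, 1.64% to 3.59%). Multi-copy regions made up to 40.0% of a block among these 16. They include the block of ribosomal DNA on chromosome 17, where 4 of 28 regions were in all 3 inputs. Outside dense megabases, 2.69% (1.93% to 3.74%) of regions were in all 3 inputs in megabases with 1 or 2 regions, 1.77% (1.35% to 2.32%) in those with 3 to 5, 2.07% (1.59% to 2.70%) with 6 to 10 and 2.39% (1.89% to 3.02%) with 11 to 25, and these intervals overlap.

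The largest block was on chromosome 8 from 19 to 21 Mb, with 1520 regions from 683 vehicle, 642 CORT and 645 washout pairs. Of its regions, 93.1% were multi-copy and 74 (4.87%, 3.90% to 6.07%) were in all 3 inputs. The noncoding gene Gm26804 held 265 of them, the pseudogene 2610005L07Rik 62, and the predicted genes Gm21119 and Gm15319 62 and 57. Next came chromosome 5 from 14 to 16 Mb with 449 regions, of which 218 lay in a gene, led by Gm21847 with 141, Gm30613 with 56 and Speer4cos with 37, and chromosome 4 from 145 to 148 Mb with 311, where C230088H06Rik, Zfp600 and Rex2 lie. On chromosome 11 from 3 to 4 Mb, 222 regions lay mostly in Sfi1, a centrosome gene with near copies elsewhere in the genome, and Drg1. Sfi1 held 157 regions, of which 14 were in all 3 inputs, 44 in 2 and 99 in 1, from 78, 81 and 77 pairs.

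Other blocks had regions that were mostly single-copy in the reference. On chromosome 1 from 88 to 89 Mb, 68 regions came from 22, 21 and 27 pairs, 80.9% of them in 1 window of 100 kb, and Mroh2a held 32 and Trpm8, the cold-sensing channel, 15. Only 5.88% of these regions were multi-copy. None was in all 3 inputs, which allows a share of up to 4.41%. The block on chromosome 8 from 45 to 49 Mb had 160 regions, 7.50% multi-copy, over Sorbs2 (18), Tenm3 (14) and Stox2 (11), spread over 36 of its 40 windows of 100 kb. None of these was in all 3 inputs either, which allows up to 1.88%. In both blocks each input thus had many pairs, mostly at positions of its own, as in the whole set, where 88.7% of regions were in 1 input. On chromosome 8 from 120 to 124 Mb there were 170 regions, and its 11 regions of all 3 inputs lay in Def8, which held 44 regions from 28 vehicle, 32 CORT and 28 washout pairs.

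**Figure D4:**
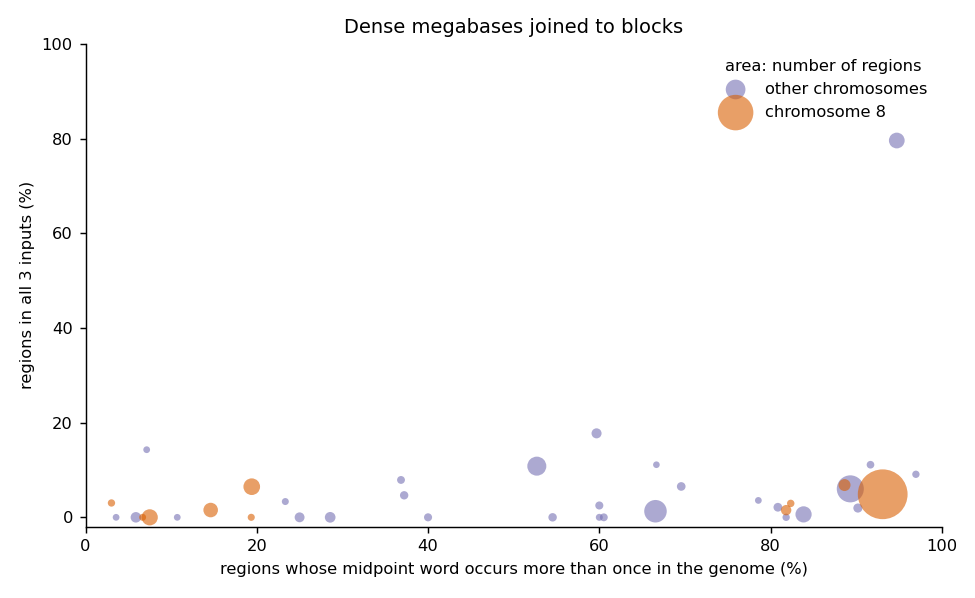
Each circle is 1 of the 38 blocks, with the share of its regions whose middle 31-base word is multi-copy on the x axis, the share in all 3 inputs on the y axis, and an area set by the number of regions. The satellite block of chromosome 9 stands alone at 79.6%, and the other blocks lie at 17.7% or below across the whole x axis.

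Repeats were more frequent among recurrent regions. The midpoint was soft-masked in 356 of 517 regions of all 3 inputs on chromosomes (68.9%, 64.7% to 72.7%) and in 4897 of 12766 regions of 1 input (38.4%, 37.5% to 39.2%), a difference of 30.5 percentage points with a 95% Newcombe interval of 26.3 to 34.4. The genome share was 36.4%. Outside dense megabases the difference was 29.4 points (22.7 to 35.5). The middle word was multi-copy in 76.4% (72.6% to 79.9%) of regions of all 3 inputs, in 36.3% (35.5% to 37.2%) of those of 1 input, and in 19.4% of grid positions. The paper's methods describe a mapping-quality filter for uniquely aligned reads, and its effect on these shares was not tested.

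Gene starts were also more frequent among recurrent regions. A midpoint within 1 kb of an annotated start was found in 21.5% (18.1% to 25.2%) of regions of all 3 inputs and in 6.12% (5.72% to 6.55%) of those of 1 input, a difference of 15.4 points (12.0 to 19.1), where the genome share was 3.86%. Without dense megabases, receptor exons and satellite regions the difference was 5.71 points (1.89 to 11.3). For starts of protein-coding genes alone it was then 2.00 points (0.0112 to 6.10), from 6 of 164 regions of all 3 inputs and 151 of 9119 of 1 input. Genes held the midpoint of 64.8% (60.6% to 68.8%) against 50.4% (49.6% to 51.3%), 14.4 points higher (10.1 to 18.5), with 46.0% of the genome in genes. This gene difference was 3.95 points (−2.94 to 10.7) outside dense megabases, so its interval then included 0. With receptor exons and satellite regions left out as well it was −5.51 points (−13.0 to 2.21), and for protein-coding genes alone −8.23 points (−15.1 to −0.637). This exclusion, also used for gene starts above, was added after seeing the data, and receptor exons lie in protein-coding genes by definition. It took regions of all 3 inputs in protein-coding genes from 91 of 206 to 55 of 164. Regions of 1 input went from 3817 of 9128 to 3809 of 9119. The sign after this exclusion is therefore not read as a result about genes.

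Over all annotated genes, 713 of 55413 (1.29%) had a region within 1 kb of the start. By gene class this held for 215 of 21938 protein-coding genes (0.980%, 0.858% to 1.12%), 130 of 10155 long noncoding genes (1.28%, 1.08% to 1.52%) and 20 of 354 ribosomal RNA genes (5.65%, 3.69% to 8.56%). For small RNAs it was 37 of 1507 snoRNA genes (2.46%, 1.79% to 3.37%), 24 of 2202 miRNA genes (1.09%, 0.734% to 1.62%) and 11 of 1383 snRNA genes (0.795%, 0.445% to 1.42%). None of 84 ribosomal protein genes or of 67 histone genes had one, which allows shares of up to 3.57% and 4.48%, both above the share over all genes. Outside dense megabases the ribosomal RNA count was 1 of 296, and the snoRNA count 15 of 1271.

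Genes often gained in neuroblastoma and other tumours are mostly short beside the mean of 5.14 regions per megabase, so a count of 0 says little about them. Mycn, Myc, Lin28b, Cdk4 and Mdm2 had none, and Alk, which spans 736 kb, had 1 from the CORT input. Among genes that respond to the receptors, Fkbp5, Syt2, Ddc and Dusp4 had none, and Sgk1, a kinase induced by corticosteroids, had 1 from the washout input. Beyond the genes already named, the protein-coding genes with most recurrent regions outside dense megabases were E030030I06Rik and Ppp2r2b with 2 each. A further 53 genes had 1 each, among which Zrsr1 and Eef2, the elongation factor of translation, are named because ties went to the shorter gene.

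Input pairs were longer than receptor pairs. The median distance between borders was 62 bp (95% interval 61 to 63) after vehicle, 62 bp (61 to 64) after CORT and 59 bp (58 to 60) after washout. The 6 receptor lists had medians from 37 to 50 bp. Between 61 and 100 bp lay 50.5% of the vehicle pairs, 50.5% of the CORT pairs and 47.5% of the washout pairs, and 18.3% to 38.0% of the receptor pairs. Pairs over 100 bp were 1.13% to 1.32% of the input lists. MACE marks pairs with a border matched on both strands, and these were 68.3% (67.1% to 69.4%) of the vehicle pairs, 66.1% (64.9% to 67.3%) of the CORT pairs and 65.9% (64.7% to 67.2%) of the washout pairs.

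**Figure D5:**
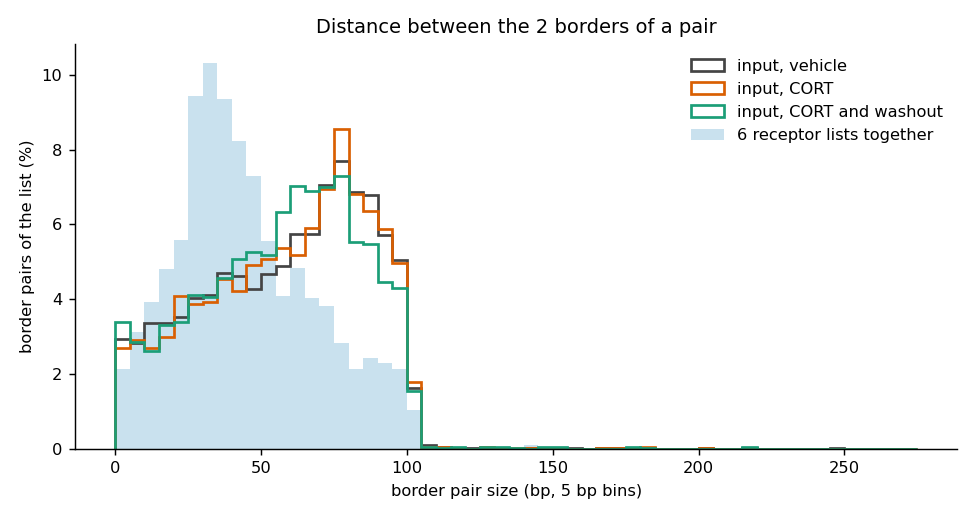
The x axis is the distance between the borders of a pair in bins of 5 bp, and the y axis the percentage of pairs in a list. Lines are the 3 inputs and the filled area the 6 receptor lists combined, which lies further left, with receptor medians of 37 to 50 bp against 59 to 62 bp.

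Receptor peaks overlapped a larger share of the recurrent input regions, which were also longer (median of 90 bp against 57 bp for regions of 1 input). A receptor peak of any list overlapped 98 of the 745 regions of all 3 inputs (13.2%, 10.9% to 15.8%), 27 of the 925 of 2 inputs (2.92%, 2.01% to 4.21%) and 58 of the 13143 of 1 input (0.441%, 0.342% to 0.570%). All 27 regions in receptor coding exons had a receptor peak, and so did 38 of the 367 satellite regions. None of the 333 regions in ribosomal DNA, mitochondrial sequence, telomeric repeats or C runs had one, which allows up to 0.901%. That limit is above the share of regions elsewhere in the genome (57 of 9141, 0.624%) and in other dense megabases (16 of 4316, 0.371%). The count of 0 thus does not set these classes apart from them.

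The share of a receptor list over input regions was highest for the short lists. It was 54 of 64 GR vehicle peaks (84.4%, 73.6% to 91.3%), with 22 over satellite regions and 14 over receptor coding exons, and 42 of 73 MR vehicle peaks (57.5%, 46.1% to 68.2%), with 7 and 15. After CORT it was 93 of 10602 GR peaks and 122 of 14638 MR peaks, and after washout 58 of 246 and 84 of 4885. The numbers of peaks over input regions thus ranged from 42 to 122 while the lists ranged from 64 to 14638 peaks. Among receptor border pairs, the list for GR after CORT had 139 pairs without labels or p-values. The paper reports many more GR border pairs after CORT, so this list does not stand for its result. Every range of the receptor lists given here is the same without it. The share of receptor border pairs over input regions ran from 17.5% (16.3% to 18.9%) for MR after CORT to 73.7% (70.1% to 77.0%) for GR after vehicle.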

How the data were processed

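Chromatin of N2A cells was sequenced without immunoprecipitation for 3 treatments. According to the labels and the paper's methods, the authors aligned reads to mm10 with Bowtie2, and made receptor peaks with MACS2 2.1.1.20160309 against input and border pairs with MACE. For the ChIP-nexus reads the methods also describe removal of PCR duplicates by barcode and a mapping-quality filter meant to keep uniquely aligned reads. Whether the input reads had the same steps is not given in the sources used here. Border pairs were deposited with MACE's own p-value, and their positions were used as the authors deposited them. Settings for the input lists are not given in the sources used here. In the input lists the header was joined to the first row, and that row was kept. Starts were read as counted from 0. The lists hold no read counts, so depth is unknown.

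Pairs were joined at 1 bp of overlap. Sequence and soft-masked bases came from RefSeq GRCm38.p6 and genes from GENCODE M21. Copies are exact matches of the middle 31-base word in the primary assembly, on both strands. The sequences of 2 regions are not reported here. Scaffolds other than JH584304 were analysed by counts only. No p-value was computed. Shares have 95% Wilson intervals, differences Newcombe intervals and densities exact Poisson intervals. Genes named were the receptors, multi-copy loci, tumour genes, receptor response genes and those with most recurrent regions (5 inside and 10 outside dense megabases). The joining step was tested on simulated intervals. The members and lists were chosen with earlier results of these data known. Python 3.11.15 was used. N2A comes from a mouse strain other than that of the reference.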

Additional observations from a re-analysis of the deposited data

How the results depend on the processing

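The count of 745 regions in all 3 inputs was 624 when 50% of the shorter pair had to overlap, 895 when pairs up to 100 bp apart were joined and 603 with lists cut to the shortest, but 102 (1.22% of regions, from 5.03%) with the pairs at or below the median p of each list, and 434 without dense megabases. The density of chromosome 8 over the other autosomes, 6.24 for the lists together, was 3.61 with the pairs at or below the median p. The 53 dense megabases were 115 bins of 500 kb, or 17 at 10 times the mean. The repeat and promoter differences kept their sign, with intervals above 0, under every alternative run. The promoter difference was 2.00 points (0.0112 to 6.10) for protein-coding starts without dense megabases, receptor exons and satellite regions. The gene difference of 14.4 points was 4.25 points (−0.0264 to 8.64) with protein-coding genes only and 3.95 points without dense megabases, and it reversed to −5.51 points (−13.0 to 2.21) when receptor exons and satellite regions were left out too, an alternative added after seeing the data. The cause of these shifts was not tested. The median pair size of 61 bp was 56 bp with the pairs at or below the median p and 58 bp without dense megabases. With regions of all 3 inputs only, the receptor peaks over input regions were 71.9% for GR and 34.2% for MR after vehicle, 0.585% and 0.465% after CORT, and 1.08% for MR after washout. No paired analysis was possible because each treatment has 1 input list. Without read counts, what depth decides about the length of a list cannot be measured.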
